A study of Homo sapiens with 6 samples.

Results

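The cytosolic ribosomal protein genes are the genes for the proteins of the 60S (large) and 40S (small) ribosomal subunits outside the mitochondrion. They were taken by symbol: RPL or RPS with a number and, where present, a closing A, X or L, together with RPLP0, RPLP1, RPLP2 and RPSA. RPS27L and pseudogene symbols were left out. The choice gave 81 of the 57781 rows of the count table, 50 for the large and 31 for the small subunit. The rule reads symbols only.

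Gene expression was measured by RNA sequencing of total RNA in 6 libraries of A549, a human cell line from a non-small cell lung cancer. In 3 libraries the cells carried an empty vector (labelled wild type, hereafter vector) and in 3 METTL3 was knocked down (shMETTL3). METTL3 is the catalytic subunit of the enzyme that writes N6-methyladenosine into mRNA. Both groups were grown in DMEM with serum and differ in the labels only by the knockdown. The replicates carry a number. The labels do not say that they were separate cultures, the study states independent repeats only for its experiments in general, and it is not told whether the 3 shMETTL3 libraries share a hairpin. The p-values therefore measure the spread between these libraries, which may be technical, and results from 1 cell line and an unstated hairpin set cannot be read as those of other lung cancer cells. The question was how the ribosomal protein genes differed between the groups and whether the subunits differed from each other.

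Each ribosome holds a set of ribosomal RNAs and, for most of these proteins, a single copy, so cells usually make the proteins in matched amounts. Their mRNAs are short, abundant and mostly begin with a terminal oligopyrimidine tract (a C followed by further C or T at the first base of the mRNA), through which growth signals such as mTOR control their translation. Free RPL5 and RPL11 can bind MDM2 when ribosome building fails.

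Library totals ran from 14931426 to 19108928 counts, and a gene with 3 counts stood at 0.150 to 0.189 CPM (counts per 1000000, after TMM scaling of library sizes). METTL3 fell from 49.9 ± 0.68 to 19.4 ± 0.53 CPM (mean ± SD, n = 3 and 3), a log2 fold change of -1.36 (edgeR adjusted p = 4.57e-16). The exact permutation test gave p = 0.1, the smallest that 3 against 3 libraries allow. Of 8 epithelial and A549 markers, all were expressed, 6 were lower and 2 higher, and their summed level was 14757 to 15409 CPM in vector and 8613 to 9048 CPM in shMETTL3. SFTPC, SFTPB and NKX2-1, which mark alveolar cells and their lineage, did not pass 1.20 CPM in any library, and the fourth alveolar marker, NAPSA, averaged 1.76 and 1.57 CPM. At these low levels SFTPB was called higher (log2 fold change 3.14, edgeR adjusted p = 3.68e-05). CD3E and VWF of blood and endothelial cells were at 0. The fibroblast marker COL1A1 was higher (5.64 and 10.5 CPM). The part of these marker shifts in the results was not tested.

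The starts of these genes show what most of them share. RefSeq promoters on GRCh38.p14 were at hand for 64 of the 81 genes. At 46 of these (71.9%), at least 1 annotated start opened with C and then 4 or more C or T, as against 1404 of 27305 genes (5.14%). The share was 28 of 40 (70.0%) for the large and 18 of 24 (75%) for the small subunit. The genes printed next are some of those with the deepest falls, the highest rises, a named role or no such start. Each shows 10 bases before the annotated start and the bases from it on, on the coding strand, and capitals mark the run of C and T from the start where it meets this rule. For RPL10 and RPL11, which have 3 and 2 annotated starts, the 1 start that meets the rule is shown.
RPL13A, chr19:49487598-49487619, plus: aaacctcctcCTTTTCCaagcg
RPS9, chr19:54200848-54200869, plus: gcttccgcgcCTCTTTCTCagt
RPS16, chr19:39435938-39435959, minus: ccctagctttCCTTTTCCggtt
RPLP1, chr15:69452808-69452829, plus: ggcgcgagagCCCCTTTCCTCa
RPS6, chr9:19380225-19380246, minus: gaagttggccCTCTTTTCCgtg
RPL11, chr1:23691796-23691817, plus: gctccgctttCTCTTCCTgctc
RPS27, chr1:153990752-153990773, plus: cgctttcgctCCTTTCCggcgg
RPL36A, chrX:101391001-101391022, plus: ctcgcggtttCTTTCTTTCCgc
RPL10, chrX:154398367-154398388, plus: ggaggagcgcCTCTTTCCCTTC
RPL3, chr22:39319612-39319633, minus: gccgaccggcctctaccggcgg
RPS4X, chrX:72277237-72277258, minus: ctccagccccaatttctacgcg
RPS29, chr14:49598699-49598720, minus: agcgcgcagctggcagcggtgg
RPL10A, chr6:35468391-35468412, plus: aagacatgctagtctcttttcc

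RPL13A and RPS9, which fell most among the genes with such a start, and RPL36A and RPS27, which rose most, all opened with a run of C and T. The last 4 sequences did not meet the rule at the annotated start. The annotated start was not measured in these cells, and a pyrimidine run some bases away, as in RPL10A, is missed by the rule. At an edgeR adjusted p under 0.05, 32.9% of all tested genes were lower and 33.7% higher in shMETTL3, and of the 78 tested ribosomal protein genes 64 were lower. Of the tested genes with the start, 38 of 45 were lower and 3 higher, with a median log2 fold change of -0.52. Of the 17 with a promoter but without the start, 12 were lower and 2 higher, with a median of -0.45. The difference between genes with and without the start was not tested.

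In shMETTL3, most ribosomal protein mRNAs were lower than in vector. Of the 78 genes with enough counts to test, 69 changed at an edgeR adjusted p under 0.05, 64 of them lower and 5 higher. Over all 15125 genes tested, 66.6% changed, 32.9% lower and 33.7% higher, so the background was nearly balanced while the ribosomal protein genes leaned to one side. DESeq2 called 66 of the 78, as it did 61.1% of all genes. The median log2 fold change of the ribosomal protein genes was -0.52, or 69.8% of the vector level, with quartiles of -0.74 and -0.38, while that of all genes was 0.0022. In 62 genes every shMETTL3 library lay below every vector library (34.3% of all genes), and in 4 every one lay above (35.2% of all genes). Of the tested genes, 40 fell by at least 0.5 on the log2 scale with an adjusted p under 0.05, as did 18.9% of all genes (20.4% with no condition on p).

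**Figure D1:**
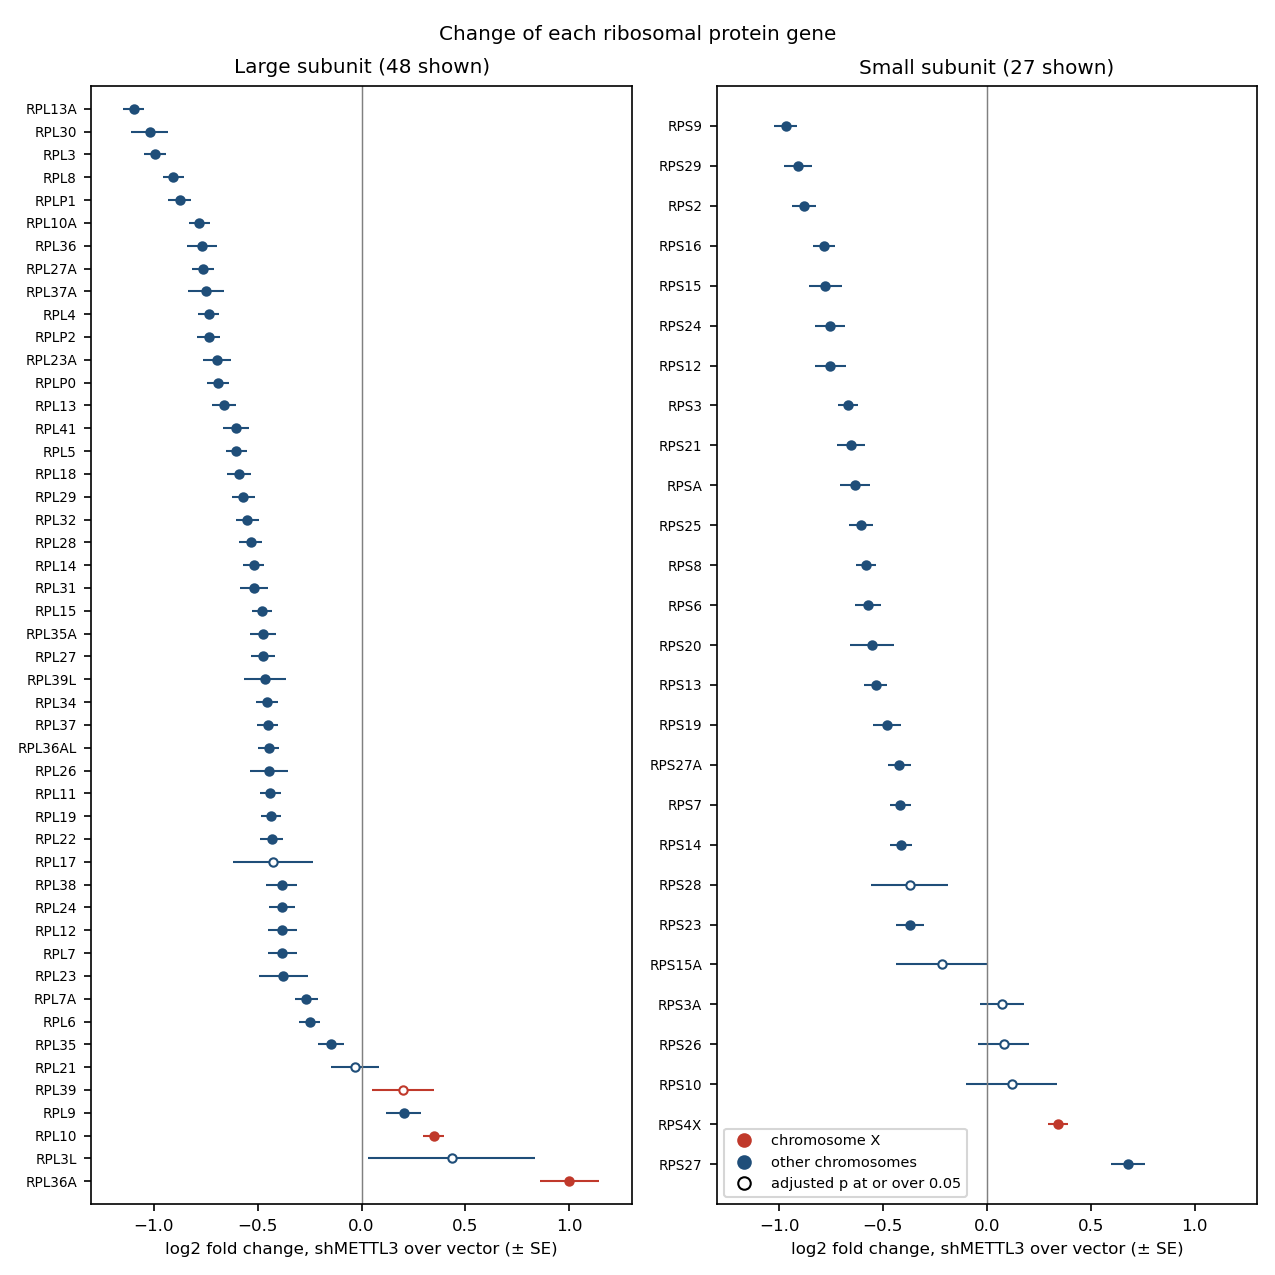
Each point is the log2 fold change (shMETTL3 over vector) of 1 ribosomal protein gene, with its standard error as the bar, for 48 of the 49 large and 27 of the 29 small subunit genes tested. The other 3 are not reported here by name. Filled points have an edgeR adjusted p under 0.05, and genes on chromosome X are in red. Most points lie between -1.10 and -0.25, and RPL36A, RPS27, RPL10 and RPS4X lie furthest to the right among the filled ones.

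The genes took 6.49%, 6.74% and 6.40% of all counts in vector and 4.87%, 4.64% and 4.94% in shMETTL3. The groups did not overlap, with means of 6.54% ± 0.18 and 4.82% ± 0.15 (SD, n = 3 each). In each shMETTL3 library on its own, the median gene lay 0.46 to 0.54 below the vector mean on the log2(CPM + 0.1) scale, while the 3 vector libraries lay within -0.024 and 0.022. The shift was therefore seen in all 3 knockdown libraries. Fewer ribosomal protein mRNAs per cell and more of other mRNAs cannot be told apart in such shares.

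**Figure D2:**
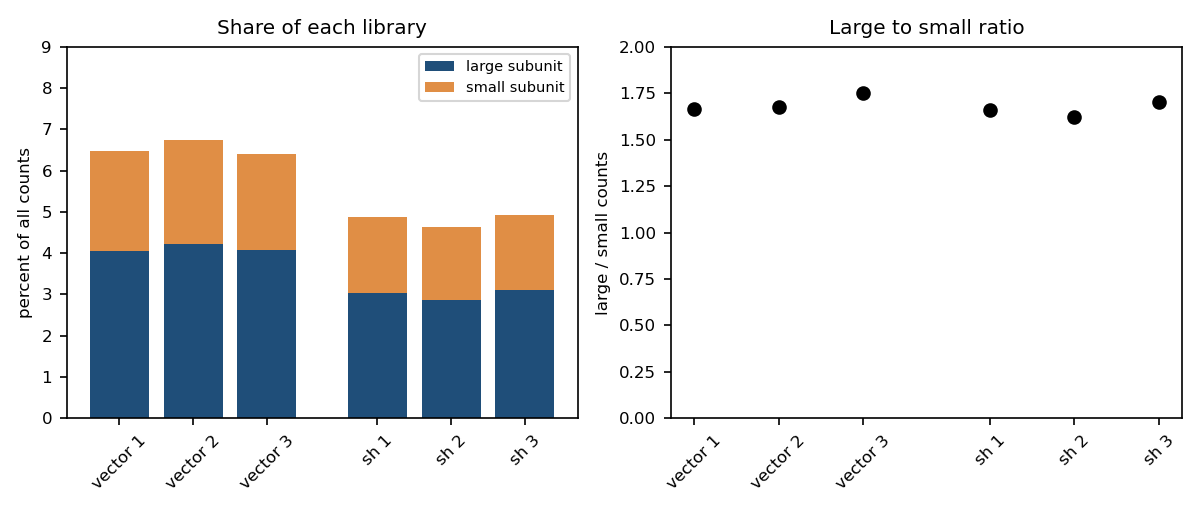
The left plot shows the percent of all counts that fell on large (blue) and small (orange) subunit genes in each library, and the right plot the ratio of large to small subunit counts. The stacked bars reach 6.40% to 6.74% in vector and 4.64% to 4.94% in shMETTL3 (sh), whereas the ratios run from 1.67 to 1.75 and from 1.62 to 1.70.

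Most genes of both subunits were lower, and the difference between the subunits was small. Of 49 large subunit genes tested, 42 were lower and 3 higher, with a median log2 fold change of -0.47 (71.9% of vector). Of 29 small subunit genes, 22 were lower and 2 higher, with a median of -0.57 (67.3% of vector). The medians differed by 0.097, with the small subunit lower. This difference shrank to 0.0043 without shMETTL3 replicate 3, to 0.057 without vector replicate 1 and to 0.0015 with offsets for GC content and transcript length. Taken library by library, the large subunit median exceeded the small by 0.015 to 0.050 in shMETTL3 and by -0.032 to 0.041 in vector, so these ranges overlapped. Large subunit counts were 1.67, 1.68 and 1.75 times the small subunit counts in vector and 1.66, 1.62 and 1.70 times in shMETTL3. These ratios overlapped too.

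The genes differed widely in level. Per kilobase of the canonical transcript, RPS16 and RPL13A were among the 3 highest in vector, at 4282 and 3110 CPM per kb, and these values depend on the transcript taken as canonical. RPS16 (chr19:39923777-39926589, GRCh37), a protein of the small subunit head, had 50282, 46847 and 40794 counts in vector and 30066, 30890 and 25574 in shMETTL3. The groups did not overlap, and its log2 fold change was -0.78 ± 0.053 (SE; edgeR adjusted p = 3.77e-13).

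The 6 deepest falls were in RPL13A, RPL30, RPL3, RPS9, RPS29 and RPL8, and none of these had overlapping groups. RPL13A, which also leaves the ribosome to silence inflammatory mRNAs, lies at chr19:49990767-49996314. Vector held 60651, 59970 and 57860 counts of it, and shMETTL3 32262, 32785 and 25525. At 3505 ± 111 and 1638 ± 31.6 CPM, its fold change of -1.10 ± 0.049 was the largest fall of all 78 (edgeR adjusted p = 5.59e-17).

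RPL30 (chr8:99037079-99058697), an outer protein of the large subunit, had 5864, 5836 and 5685 counts in vector. In shMETTL3 it had 2473, 3498 and 3230, and replicate 1 was the lowest. Its log2 fold change was -1.02 ± 0.089 (edgeR adjusted p = 9.48e-11). RPL3 (chr22:39708887-39716394), which reaches towards the peptidyl transferase centre, fell from 38641, 34728 and 35224 to 22240, 21201 and 15896 counts, by 0.99 on the log2 scale (edgeR adjusted p = 3.04e-15). RPL8 (chr8:146015150-146017972), another protein near that centre, went from 52980, 52875 and 53157 to 32237, 32957 and 26760 counts, a change of -0.91 ± 0.051 (edgeR adjusted p = 6.67e-15).

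On the small subunit, RPS9 and RPS29 changed most. RPS9 (chr19:54704677-54752862), an early-binding protein that helps keep decoding accurate, had 15714, 14554 and 14230 counts in vector and 8858, 8067 and 7580 in shMETTL3. Its CPM was nearly the same in the 3 vector libraries (873 ± 2.3), and its change was -0.97 ± 0.056 (edgeR adjusted p = 1.38e-14). RPS29 (chr14:50037702-50065882), a small zinc-binding protein of the head, went from 6888, 6923 and 5790 to 3982, 3627 and 3614 counts, a change of -0.91 ± 0.066 (edgeR adjusted p = 1.76e-12).

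By position and role, small groups of genes are read against 82.1% lower of the tested ribosomal protein genes and 32.9% of all genes. The stalk that recruits elongation factors had a median log2 fold change of -0.71, within the quartiles of the whole set (-0.74 and -0.38). All 4 of its genes were lower: RPLP1 by 0.88, RPLP2 by 0.74, RPLP0 by 0.69 and RPL12, at its base, by 0.38 on the log2 scale. RPLP1 had 27143, 27849 and 27902 counts in vector and 17187, 16690 and 14976 in shMETTL3. RPS2 and RPS3, which line the mRNA entry channel, were also lower, at log2 fold changes of -0.88 and -0.67. Of the 10 genes around the exit of the peptide tunnel, 8 were lower, from RPL4 at -0.74 to RPL35 at -0.15, and RPL17 and RPL39 were not called. At the mRNA exit platform, RPS14 (-0.41) was lower, while RPS26 and RPS28 were not called. RPS15 (-0.78) and RPS23 (-0.37), which reach the decoding region, were both lower.

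RPL5 and RPL11, which travel with 5S ribosomal RNA, were both lower and did not overlap between groups. RPL5 (chr1:93297570-93307481) had 22349, 20778 and 18116 counts in vector and 15327, 15369 and 12874 in shMETTL3, a change of -0.60 ± 0.053 (edgeR adjusted p = 9.07e-11). RPL11 (chr1:24018232-24023325) had 15553, 14917 and 14637 counts in vector and 12061, 13582 and 10452 in shMETTL3, a change of -0.44 ± 0.049 (edgeR adjusted p = 1.21e-08). RPS6 (chr9:19375713-19380234), the small subunit protein that S6 kinase phosphorylates, fell from 44103, 51612 and 41207 to 35746, 36951 and 27539 counts. Its change was -0.57 ± 0.064 (edgeR adjusted p = 9.62e-09).

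Among the 18 genes in the list whose loss of function causes Diamond-Blackfan anaemia, an inherited failure of red cell production, 17 were tested, 13 were lower and 1 higher (RPS27). The lower genes ran from RPS29 at -0.91 to RPL35 at -0.15. The share lower was 76.5% in this list, 82.1% over all tested ribosomal protein genes and 32.9% over all tested genes. RPS19, the gene most often mutated in that disease, had 27735, 27080 and 20136 counts in vector and 21172, 20010 and 16868 in shMETTL3. In CPM its groups did not overlap, and its change was -0.48 ± 0.068 (edgeR adjusted p = 6.58e-07).

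**Figure D3:**
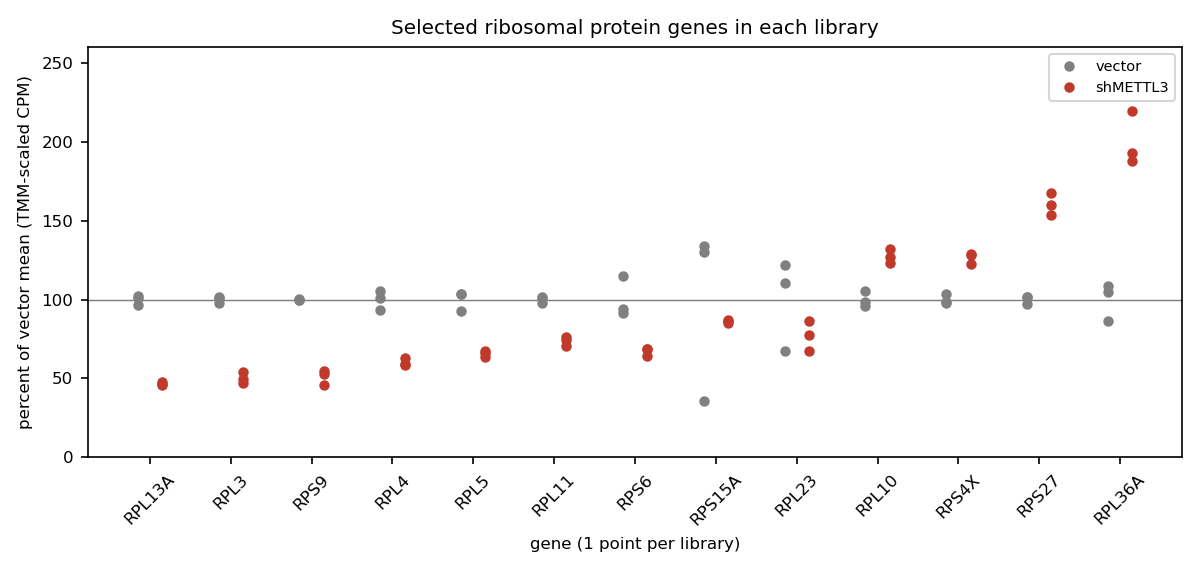
For 13 ribosomal protein genes, each point is 1 library, as the percent of that gene's mean TMM-scaled CPM in vector (grey, vector; red, shMETTL3). RPL13A, RPL3 and RPS9 lie lowest in shMETTL3, RPL10, RPS4X, RPS27 and RPL36A lie above vector in all 3 libraries, and vector replicate 2 of RPS15A and vector replicate 3 of RPL23 stand apart from the other vector libraries.

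Only RPL36A, RPS27, RPL10, RPS4X and RPL9 rose. RPL36A (chrX:100645812-100651143), a large subunit protein, had 76, 68 and 55 counts in vector and 145, 171 and 116 in shMETTL3. It went from 3.89 ± 0.46 to 7.78 ± 0.66 CPM, a log2 fold change of 1.0 ± 0.143 (edgeR adjusted p = 7.23e-07). RPS27 (chr1:153963238-153964631), a zinc-finger protein of the small subunit, had 239, 232 and 227 counts in vector and 407, 439 and 364 in shMETTL3. Its change was 0.68 ± 0.083 (edgeR adjusted p = 5.13e-08). Both genes were weakly counted, and neither overlapped between groups.

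RPL10 and RPS4X were the abundant genes that rose. RPL10 (chrX:153618315-153637504), which completes the late large subunit near its tRNA sites, had 7650, 6481 and 6506 counts in vector and 10289, 9965 and 8136 in shMETTL3. Its change was 0.35 ± 0.051 (edgeR adjusted p = 1.18e-06). RPS4X (chrX:71475529-71497098), a small subunit protein with a copy on the Y chromosome, had 21491, 20179 and 20745 counts in vector and 30396, 30099 and 25111 in shMETTL3. Its change was 0.34 ± 0.049 (edgeR adjusted p = 8.35e-07). RPL9 (378, 354 and 315 counts in vector, 513, 462 and 334 in shMETTL3) passed with a change of 0.20 ± 0.085 (edgeR adjusted p = 0.0386), but its groups overlapped, and DESeq2 gave an adjusted p of 0.095.

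Of these 5 genes, 3 were on chromosome X. Of the 4 ribosomal protein genes there, RPL10, RPL36A and RPS4X were higher and RPL39 was not called (97, 72 and 87 counts against 123, 101 and 94, log2 fold change 0.20, edgeR adjusted p = 0.24). Of all tested genes on chromosome X, 373 of 453 (82.3%) were higher, with a median of 0.74, so 3 of 4 was a share near that of the chromosome. Outside X, 64 of 74 were lower and 2 higher (RPS27 and RPL9), with a median of -0.53.

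The Y-linked RPS4Y1, which lies outside the chosen symbols, was counted at 5183, 4920 and 4556 in vector and at 2786, 2804 and 2301 in shMETTL3 (log2 fold change -1.01, edgeR adjusted p = 4.57e-16). The ratio of RPS4Y1 to RPS4X counts was 0.241, 0.244 and 0.220 in vector and 0.0917, 0.0932 and 0.0916 in shMETTL3. The groups lay far apart. The part of a chromosome-wide shift in the X-linked rises was not tested.

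On chromosome 19, 11 of 12 ribosomal protein genes were lower, with a median log2 fold change of -0.77, and RPS28 was not called. Of all 947 tested genes of that chromosome, 425 (44.9%) were lower, and their median was -0.18.

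The genes that did not fall were mostly those with few counts. At a mean of at least 32 CPM, a split chosen after the values were seen, 63 of 66 genes were lower, RPL10 and RPS4X were higher and RPS15A was not called. Of the 12 tested genes under that mean, RPL39L was lower, RPS27, RPL36A and RPL9 were higher and 8 were not called. Many of the latter lie in repeated sequence. Ribosomal protein mRNAs were often copied back into the genome as processed pseudogenes, and 1131 rows of the table were named as such copies, with a median of 9 and up to 88 for a gene (RPL23A).

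For each gene, the share of 75-base words of its canonical transcript with an exact copy elsewhere in GRCh37 was counted. Of 8 genes with over 80% of words repeated, 1 was lower, 2 were higher (RPS27 and RPL9) and 5 were not called (RPL17, RPL21, RPL39, RPS3A and RPS10). In RPL21 all words (100%) had a copy, and it was counted only 140 to 189 times a library. Exons of RPL17 and RPS10 also overlap RPL17-C18orf32 and RPS10-NUDT3 on the same strand, so their reads may be shared. Of 36 tested genes with under 10% of words repeated, 34 were lower, RPS4X was higher and RPL3L was not called, with a median of -0.54. Of 34 between these limits, 29 were lower and 2 higher. How reads with several best positions were handled is not given in the sources used here, so a low count in a repeated gene cannot be read as a low mRNA level.

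**Figure D4:**
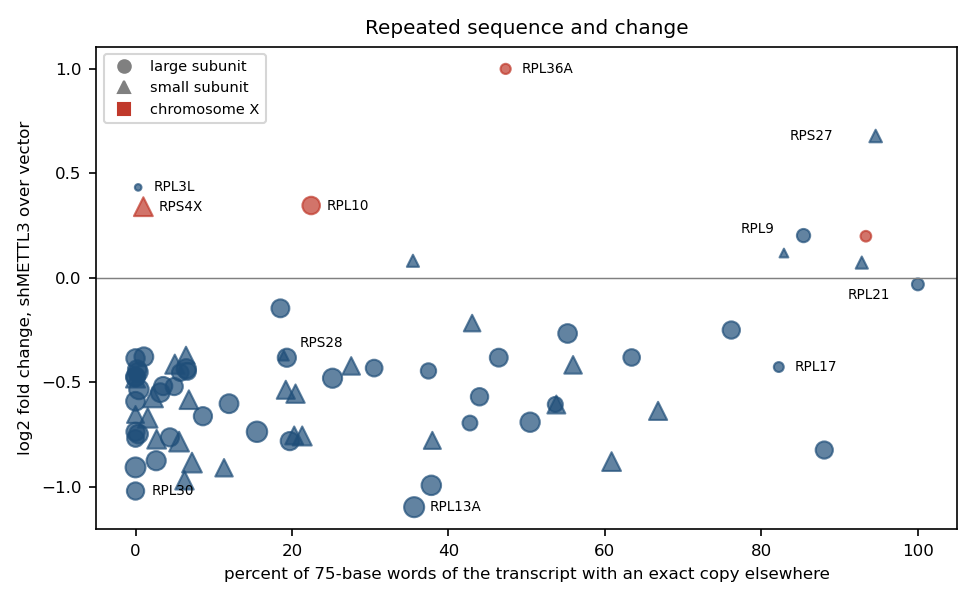
Each point is 1 tested gene: the horizontal axis is the percent of its 75-base words with an exact copy elsewhere in the genome, the vertical axis its log2 fold change, and larger points mark higher vector CPM (circles, large subunit; triangles, small subunit; red, chromosome X). At the left, 34 of the 36 genes under 10% were lower, and at the right, past 80%, points are small and lie mostly near 0, apart from RPS27 above and 1 point below.

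The pseudogene rows moved with their parents in sum. They held 25489, 24464 and 24502 counts in vector and 17270, 18533 and 14435 in shMETTL3, or 2.1 and 2.0 counts for every 100 of the ribosomal protein genes. Of the 70 pseudogene rows tested, 39 were lower and 1 higher. With their counts added to the parents, 79 genes could be tested, of which 68 were lower and 5 higher. RPS28 then moved from -0.37 (edgeR adjusted p = 0.0772) to -1.01 (edgeR adjusted p = 1.82e-14).

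The other 3 of the 81 genes were not tested. Among them, RPL10L, a testis copy of RPL10, was at 0 in all libraries. RPS18, a core protein of the small subunit, had a single count, in vector replicate 3. It lies at chr6:33239852-33244288 in the major histocompatibility region. Of the 27 protein-coding rows that begin within 1000000 bases before it or at it, 26 (96.3%) had at most 1 count in every library, as had 10 of the 21 (47.6%) that begin within 1000000 bases after it and 20.1% of all protein-coding rows. The count cannot be read as the level of the RPS18 mRNA.

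The counts of tissue-restricted and recent copies did not all move with those of their parents. RPL39L, a copy of RPL39 known from testis and some tumours, had 222, 229 and 229 counts in vector and 193, 190 and 152 in shMETTL3, and in CPM it fell by 0.46 on the log2 scale (edgeR adjusted p = 0.000236). RPL36AL, a copy of RPL36A, had 4305, 4333 and 4072 counts in vector and 3583, 3536 and 2974 in shMETTL3, and fell by 0.45 (edgeR adjusted p = 1.34e-08), whereas RPL36A rose. RPL3L, the striated muscle copy of RPL3, had 6 to 12 counts in vector and 11 to 18 in shMETTL3 and was not called (edgeR adjusted p = 0.348). Of the 75-base words of the parent transcripts, 47.3% in RPL36A and 93.4% in RPL39 had an exact copy elsewhere. Exons of RPL36A also overlap RPL36A-HNRNPH2 on the same strand. The low counts of these parents cannot be read as their mRNA levels. Differences between copy and parent were not tested.

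A few genes rested on 1 library. RPS15A had 4674, 1203 and 4368 counts in vector and 3341, 3489 and 2695 in shMETTL3. With vector replicate 2 it was not called (-0.22, edgeR adjusted p = 0.399), and without it the change was -0.62 (edgeR adjusted p = 1.15e-11). RPL23 had 23891, 24470 and 13234 counts in vector and 20051, 16170 and 14791 in shMETTL3, with overlapping groups. It was called lower at -0.38 (edgeR adjusted p = 0.00626). Without vector replicate 2 its change was -0.22 (edgeR adjusted p = 0.072), without vector replicate 3 it was -0.60, and DESeq2 gave an adjusted p of 0.199. RPS20 (14526, 16981 and 9925 against 9345, 10791 and 10104 counts) was called at -0.55 with overlapping groups, and at -0.37 without vector replicate 2.

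Weak calls hung on single libraries as well. RPL35, near the tunnel exit, had 8877, 8328 and 10045 counts in vector and 9355, 9454 and 7908 in shMETTL3, with overlapping groups (edgeR adjusted p = 0.0437). It lost its call without vector replicate 3, where its change was -0.041, and without any 1 of the shMETTL3 libraries. RPL9 lost its call without vector replicate 1 or 3, without shMETTL3 replicate 1, where its change was 0.11, and without shMETTL3 replicate 2. RPL17 and RPS28, which were not called, passed in some of these fits, RPS28 without vector replicate 1 (-0.49) and RPL17 without vector replicate 1 or 2 or shMETTL3 replicate 2 (-0.49, -0.49 and -0.53). The median coefficient of variation of the ribosomal protein genes was 6.54% in vector and 5.51% in shMETTL3.

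The fall was also set beside other genes of like length and level, since over all tested genes those with transcripts under 1000 bases had a median of -0.27 and the others 0.034. Within the ribosomal protein genes, the 44 short ones had a median of -0.54 and the 34 long ones -0.50. There were 76 other tested genes with a short transcript and an average log2 CPM of at least 7. Of these, 59 were lower and 7 higher, with a median of -0.43. Short, abundant mRNAs outside the list were thus mostly lower as well. Across the 78 genes, log2 fold change and transcript GC content had a Spearman's rho of -0.36 and transcript length one of 0.11, given as a description. The same libraries underlie all points, and across all genes rho was -0.15 and 0.14 (n = 13863).

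Ribosomal proteins are also made from genes under other names. FAU, which encodes eS30 fused to a ubiquitin-like protein, had a log2 fold change of -0.54 (edgeR adjusted p = 1.06e-08). RPS27A, the ubiquitin fusion among the chosen genes, had -0.42. Of the 5 copies outside the rule that were tested, RPS4Y1 and RPL22L1 (-0.60) were lower, RPL7L1 (0.39) and RPS27L (0.19) were higher and RPL26L1 was not called.

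Other genes listed for mRNAs with the same kind of tract were mostly lower too. They were mostly translation factors, with a few proteins of other function such as NPM1, HNRNPA1 and TPT1. Over all tested genes, 32.9% were lower and 33.7% higher. Of the 18 listed genes tested, 16 were lower and 1 (EIF3A, 0.13) higher, with a median of -0.49. The deepest falls were in PABPC1, the cytoplasmic poly(A)-binding protein, at -0.99, and EEF2, the translocation factor, at -0.90. Of the 76 mitochondrial ribosomal protein genes tested, 41 were lower and 10 higher, with a median of -0.18. There MRPL23 (-0.92) and MRPL12 (-0.81) fell most, and MRPL32 (0.50) and MRPS18C (0.44) rose most.

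The genes that build ribosomes are read against the 33.7% higher and 32.9% lower of all genes. Of 34 small subunit assembly factors, 19 were higher and 6 lower, with a median of 0.17; KRR1 (0.63) and PNO1 (0.61) rose and IMP3 (-0.87) and EMG1 (-0.83) fell most. Of 47 large subunit assembly factors, 19 were higher and 15 lower, with a median of 0.029, both shares being near that background. SDAD1 (0.94) and LSG1 (0.70) rose most, and URB1 (-1.42) and BOP1 (-0.68) fell most. The RNA polymerase I machinery, which makes ribosomal RNA, had 7 higher and 6 lower of 19 tested, also near the background. There TTF1 (0.94) and RRN3 (0.42) rose most, and POLR1E (-0.88) and POLR1D (-0.70) fell most. The proteins of the box C/D and H/ACA particles, which modify it, had 5 of 11 in each direction, with DKC1 (0.77, on chromosome X, whose genes had a median of 0.74) and NOP58 (0.68) highest and NHP2 (-0.82) and FBL (-0.63) lowest.

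**Figure D5:**
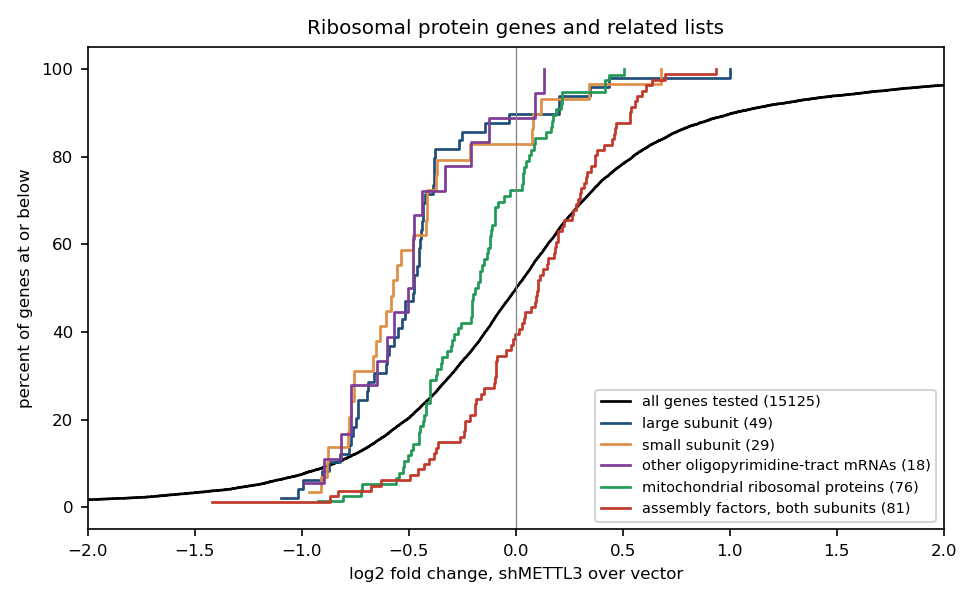
Each curve gives the percent of a list's tested genes (their number in parentheses) at or below the log2 fold change on the horizontal axis, shMETTL3 over vector. The curves of the large and small subunit and of the other listed mRNAs with an oligopyrimidine tract lie together to the left, with medians of -0.47, -0.57 and -0.49. The mitochondrial ribosomal proteins have a median of -0.18, and the assembly factors of both subunits lie near all genes or to their right.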

How the data were processed

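RNA sequencing of 3 vector and 3 shMETTL3 A549 libraries was used. The counts the authors deposited are whole numbers per gene symbol, neither normalized nor filtered. Per the labels, the submitters' processing notes name cutadapt 3.0, HISAT2 2.2.1, SAMtools 1.13, HTSeq 0.13.5, DESeq2 and hg19. The paper's methods give earlier HISAT2 and htseq versions. Annotation, strand setting and the treatment of multiply mapped reads are not given in the sources used here. Exons of 8 genes of the set overlap another annotated gene on the same strand and of 15 on the other, so their reads may be shared.

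Groups and replicate numbers came from the sample titles. The test was edgeR 4.0.16 in R 4.3.3 (TMM, filterByExpr, glmQLFit, glmQLFTest, group only), with Benjamini-Hochberg adjustment over 15125 genes and calls at an adjusted p under 0.05. For METTL3, log2(CPM + 0.1) was also tested by exact permutation (two-sided). Depth set a floor of 3 counts, which covers counting error only. Lists were described by counts and medians. Positions and lengths came from GENCODE v44 lifted to GRCh37, and starts from RefSeq. In full were given the 6 largest rises and falls past the threshold at an average log2 CPM of at least 2 (5 rises passed), copies with their parents, X-linked members, RPL5, RPL11, RPS6 and the 3 highest per length. Some genes and 1 list that these rules name are not reported here. Of each related list reported, up to 2 of the largest rises and falls were named. Other members were named for a role or for 1 library, after their values were seen. The members and lists were chosen with earlier results of these data known. Alternatives were other scalings, filters and tools (DESeq2 1.42.0, limma 3.58.1), GC and length offsets, added pseudogene counts, a replicate block and leaving out each library.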

Additional observations from a re-analysis of the deposited data

How the results depend on the processing

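Of the 78 tested genes, 60 were lower and 4 (RPL36A, RPS27, RPL10 and RPS4X) higher, with an adjusted p under 0.05, under all 17 alternatives that refitted the genes. The number changed was 66 with DESeq2 and 73 with pseudogene counts added (of 79 then tested), against 69 of 78. Requiring an absolute log2 fold change of at least 0.5 left 42 (40 lower, 2 higher). With library size alone as the scaling, the median of all genes was 0.18 and the list medians were -0.35 (all ribosomal protein genes), -0.30 (large) and -0.40 (small subunit). Relative to all genes, the median was -0.52 with TMM and with library size alone, -0.59 with no filter and -0.42 once GC content and length entered as offsets. These offsets gave -0.48 for all genes of the set, -0.48 for the small subunit and a difference between subunits of 0.0015. Leaving out 1 library at a time gave 67 to 70 genes changed, medians of -0.55 to -0.49 (all), -0.54 to -0.47 (large) and -0.62 to -0.55 (small), and a difference of 0.0043 to 0.12. Without mitochondrial genes in the total, the shares were 8.0% and 5.75%.

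The log2 fold change changed sign in 6 genes. With library size alone RPL21 stood at 0.14 and RPL35 at 0.031, and with the offsets at 0.041 and 0.11. RPS15A stood at 0.00643 with limma-voom. With pseudogene counts added, RPS10 stood at -0.38 and RPS3A at -0.24. Without single libraries RPL21 ran from -0.11 to 0.031, RPS15A from -0.62 to 0.040, RPS10 from -0.037 to 0.22 and RPS26 from -0.043 to 0.26. The cause was not tested. Of these only RPL35 had been called, and RPL9, RPL35 and RPL23 lost their call under several alternatives, RPL6 (-0.075) and RPL7A (-0.091) with library size alone.

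With the replicate number as a replicate block, 69 genes changed, 64 lower and 5 higher. Deviations of same-numbered libraries correlated at 0.051, -0.0057 and 0.033, and those of differently numbered ones at -0.059 to 0.025. These values did not show a pairing, but they cannot exclude a weak one, which would leave them small.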

Other observations

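Regulators of mRNAs with a terminal oligopyrimidine tract moved both ways. Of 19 tested, 8 were lower and 7 higher by edgeR. EIF4EBP1, a translation repressor that mTOR switches off, was at a log2 fold change of -1.08 and MYC, a transcription factor of ribosome genes, at -0.73. RPS6KB1, the S6 kinase, was at 0.86, LARP4, which binds poly(A) tails, at 0.44 and LARP1, which binds the tract, at 0.22. Over all genes 32.9% were lower and 33.7% higher.

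Among 16 chaperones and importers of ribosomal proteins, 6 were lower and 5 higher, near the 32.9% and 33.7% of all genes. TSR2, the chaperone of RPS26, was at 0.98 (it lies on chromosome X, where 82.3% of tested genes were higher, with a median of 0.74) and HEATR3, which carries RPL5 and RPL11 into the nucleus, at 0.53, whereas IPO5 was at -0.40 and BTF3 at -0.34.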
